A study of Mus musculus with 15 samples.

Results

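Cerebellins, neurexins and neurexophilins are cell-surface and secreted proteins that meet at synapses, and 9 of their genes were followed here out of 24158 genes present in both expression tables of the study. The members were 4 neurexophilin genes (*Nxph1*, *Nxph2*, *Nxph3* and *Nxph4*), 2 neurexin genes (*Nrxn2* and *Nrxn3*) and 3 cerebellin genes (*Cbln1*, *Cbln2* and *Cbln4*). They were taken by gene name, and the set was chosen by their control and mutant values in these same tables, so the differences between groups given below describe the members and do not test them. All 9 were listed in both tables, and 8 passed the filter on low values in each, a mean normalised read count of at least 10. *Cbln4* did not pass. *Cbln3* is given beside the other cerebellins as a relative.

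The cells were cortical interneurons of the medial ganglionic eminence (MGE) lineage, sorted by YFP fluorescence from the cortex of single mouse embryos at E14.5. In all 15 embryos, the Nkx2-1-Cre transgene switched on YFP from R26R-YFP fl/fl, so that the label marks descendants of cells that once expressed Nkx2-1 and not a single interneuron type. The *Lhx6* comparison held 4 *Lhx6*+/+ controls and 5 *Lhx6*-/- mutants, which the authors describe as littermates. The *Mtg8* comparison held 3 *Mtg8*+/+ controls and 3 embryos labelled *Mtg8*-/-. All embryos were of a mixed C57BL/6 and CBA background and of either sex. Both mutations are germline, so every cell of the embryo carries them. Libraries are named by group and by the replicate number of their label, and each came from 1 embryo.

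Depth ranged from 12218422 to 22053032 reads per library. *Lhx6* was 4.57% of its control mean in *Lhx6* mutants. *Runx1t1*, the gene of MTG8, was at 17970 ± 5387 (SD, n = 5) in *Lhx6* mutants and at 7449 ± 1072 (n = 4) in their controls. These groups were apart (log2 fold change 1.23, limma adjusted p = 0.00401). *Runx1t1* stood at 7938, 8470.1 and 10265 in *Mtg8* controls and at 12250, 12352 and 13934 in the libraries labelled *Mtg8* mutant. Counts per gene do not show which exons were read. These libraries are therefore named by their label. *Sst* (somatostatin) was at 6615 ± 1259 in them against 16700 ± 2080 in controls (SD, n = 3 each, groups apart; limma adjusted p = 0.0713, DESeq2 adjusted p = 9.25e-06), and *Npy* (neuropeptide Y) at 2583 ± 871 against 5478 ± 668 (groups apart; limma adjusted p = 0.58, DESeq2 adjusted p = 0.0247). Every library expressed the list named here MGE markers (summed normalised read counts of 29170 to 59590 over 10 genes). The list was *Gad1*, *Gad2*, *Dlx1*, *Dlx2*, *Dlx5*, *Dlx6*, *Erbb4*, *Maf*, *Sox6* and *Lhx6*. As *Gad1*, *Gad2* and the *Dlx* genes are shared by GABAergic interneurons of other origins, the sum does not show MGE identity. Radial glia, pyramidal neuron and erythroid markers were also present. In *Lhx6* mutants the summed CGE (caudal ganglionic eminence) interneuron markers were at 2401 to 3181 against 1698 to 2052 in controls. Of the 7 CGE markers tested there, limma called *Adarb2* higher (log2 fold change 4.33) and *Htr3a* (-1.65) and *Npas1* (-2.0) lower. Of the 10 MGE markers it called *Dlx5* (1.02) and *Dlx6* (1.66) higher and *Lhx6* (-4.48) lower, and without *Lhx6*, a sum chosen after seeing the data, the MGE markers were at 28830 to 49480 in mutants and 27190 to 36350 in controls. The groups of the *Mtg8* comparison also did not overlap for the MGE markers (37520 to 55920 in labelled mutants against 58160 to 59590 in controls, and likewise apart without *Lhx6*), the CGE markers (2059 to 2653 against 1731 to 1879) or the radial glia markers (7095 to 11240 against 4857 to 6515). The part of these shifts in the results below was not tested. In bulk samples such as these, fewer cells of a type and less RNA per cell cannot be told apart.

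Neurexins are presynaptic adhesion molecules that reach across the synaptic cleft to neuroligins, LRRTMs, dystroglycan and other partners, and extensive alternative splicing sets which partner they bind. Neurexophilins are small secreted glycoproteins that bind the long alpha forms of neurexins, and *Nxph1* is known from inhibitory neurons. Cerebellins are secreted proteins of the C1q family that link presynaptic neurexins to postsynaptic GluD receptors, and *Cbln1* is best known from the synapses of granule cells onto Purkinje cells of the cerebellum. In the adult cortex *Cbln4* is known from somatostatin interneurons, and at E14.5 the sorted cells are migrating neurons that have yet to form most of their synapses.

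In controls *Nxph2* and *Nxph1* led the members, and *Nxph3* and *Nxph4* were low. Levels between genes were compared per length, as recovered reads scaled to the gene's length and the library's total (RPKM). In *Lhx6* controls the order began with *Nxph2* at 77.0 ± 1.71 RPKM (SD, n = 4), followed by *Nxph1* at 62.5 ± 7.76, *Nrxn3* at 15.4 ± 2.79 and *Nrxn2* at 10.4 ± 2.63. *Nxph4* followed at 4.09 ± 1.5, *Cbln2* at 2.03 ± 0.226, *Nxph3* at 1.24 ± 0.324, *Cbln1* at 0.986 ± 0.612 and *Cbln4* at 0.141 ± 0.128 (0.086 without control 2). The ranges of *Nrxn3* and *Nrxn2*, of *Nxph4* and *Cbln2*, and of *Nxph3* and *Cbln1* overlapped, and those of *Nxph2* and *Nxph1* did not.

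The same genes led in *Mtg8* controls, whose table was normalised separately. *Nxph2* was at 120.1 ± 5.48 RPKM (n = 3), *Nxph1* at 88.4 ± 7.26, *Nrxn3* at 30.3 ± 3.10 and *Nrxn2* at 10.9 ± 0.778, with no overlap among these neighbours. Below them, *Nxph4*, *Cbln1*, *Cbln2* and *Nxph3* lay between 0.511 and 1.30 RPKM, and each overlapped the next. Summed, neurexophilins came to 144.9 ± 9.77 RPKM in *Lhx6* controls, *Nrxn2* and *Nrxn3* together to 25.8 ± 5.23 and cerebellins (*Cbln3* included) to 3.22 ± 0.824. These cells thus held RNA of the neurexin ligands of the neurexophilin family at a far higher level per length than that of the cerebellins.

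**Figure D1:**
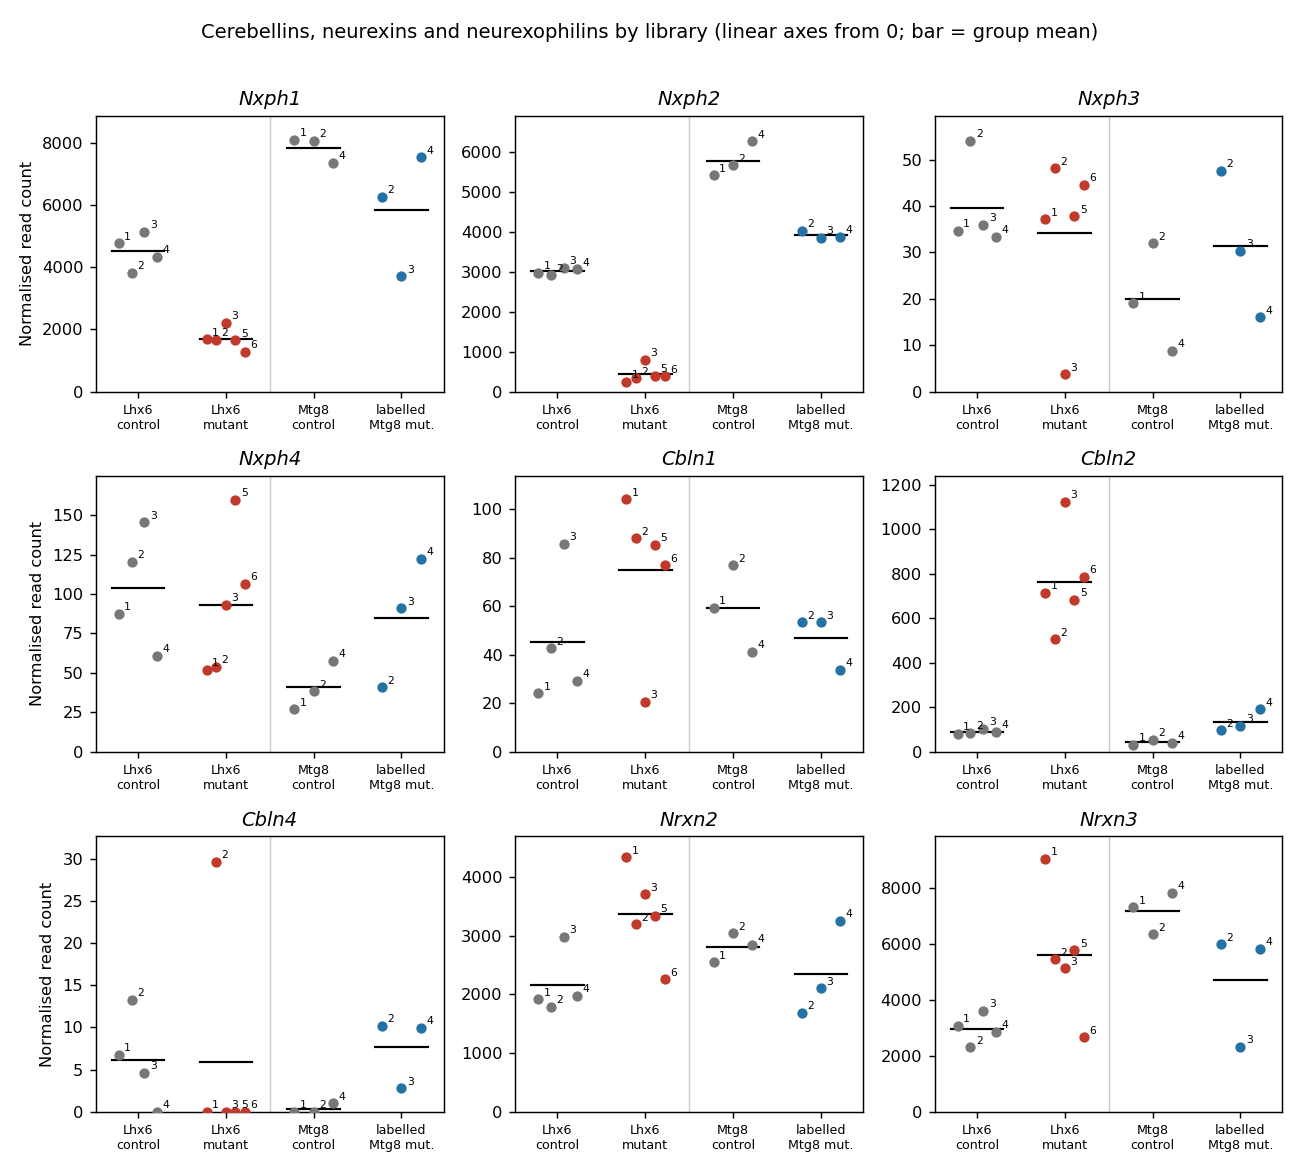
Normalised read count (y axis, linear and starting at 0) of each of the 9 genes in the 15 libraries, with 1 point per library, its replicate number beside it and a bar at the mean of each group; the 2 tables were normalised separately and are divided by a vertical line. *Nxph1* and *Nxph2* of all 5 *Lhx6* mutants lie below, and *Cbln2* of all 5 lies above, every control, and *Nrxn3* of mutant 6 lies among the controls.

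In *Lhx6* mutants, *Nxph2* and *Nxph1* were lower and *Cbln2* was higher than in every control. These 3 genes were the members called by limma at an adjusted p under 0.05. The 2 called lower stand beside 0.682% of all 16727 genes tested that were called lower, and the 1 called higher beside 1.03% called higher. The groups of these same genes did not overlap, which held for 3.03% of all genes with mutants lower and for 3.19% with mutants higher. As the members were chosen with this contrast known, nothing is read from these shares. The other 5 genes tested overlapped between the groups.

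*Nxph2* encodes a secreted neurexophilin and lies at chr2:23321246-23401973 of GRCm38, on the plus strand, in 2 exon blocks. Its normalised read counts in controls 1, 2, 3 and 4 were 2973, 2917, 3105 and 3059. In *Lhx6* mutants 1, 2, 3, 5 and 6 they were 245, 330.4, 802, 397 and 386. The controls were tightly grouped, every mutant lay far below them, and mutant 3 was the highest mutant. The group means were 3013 ± 84.3 (SD, n = 4) and 432 ± 215 (n = 5), which put the mutants at 14.3% of the control mean (log2 fold change -2.92, SE 0.26, limma adjusted p = 5.18e-05).

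*Nxph1* encodes a neurexophilin of inhibitory neurons and spans chr6:8948431-9249032 (GRCm38, plus strand). The controls were at 4761, 3821, 5128 and 4327 normalised reads, and mutants 1, 2, 3, 5 and 6 at 1677, 1673, 2210.2, 1645 and 1269. The lowest control was above the highest mutant, again mutant 3. The mutants held 37.6% of the control mean (4509 ± 564 against 1695 ± 336; log2 fold change -1.43, SE 0.16, limma adjusted p = 3.08e-04). The difference was thus less than for *Nxph2* on the log2 scale, and the difference between the genes was not tested.

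*Nxph3* and *Nxph4*, the other neurexophilins, were low and showed no such drop. *Nxph3* was at 33.4 to 54.1 normalised reads in controls and at 37.1 to 48.1 in 4 of the mutants, with mutant 3 at 3.73 (log2 fold change -0.53, SE 0.63, limma adjusted p = 0.734). Its log2 fold change was 0.10 without mutant 3 and -0.21 with DESeq2 and with edgeR. *Nxph4* ranged from 60.7 to 146 in controls and from 52.0 to 160 in mutants (log2 fold change -0.21, SE 0.38, adjusted p = 0.833). Its log2 fold change ran from -0.44 without control 4 to -0.020 without control 3, and it also moved by over 1.5 times without control 2 or without mutant 1, 2 or 5. Both genes overlapped widely between the groups.

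The make-up of the family shifted with these values. *Nxph2* made 53.3% ± 2.54 (SD, n = 4) of the summed neurexophilin RPKM in controls and 27.1% ± 6.88 (n = 5) in *Lhx6* mutants, with no overlap (50.4% to 55.6% against 19.1% to 37.3%). *Nxph1* made 43.1% ± 2.67 in controls and 60.5% ± 7.60 in mutants, so that the leading neurexophilin RNA was *Nxph2* in the 4 controls and *Nxph1* in the 5 mutants. *Nxph4* made 2.80% ± 0.948 in controls and 9.43% ± 4.40 in mutants, while its own level overlapped. The family's summed level was 37.7 ± 8.28 RPKM in mutants against 144.9 ± 9.77 in controls.

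**Figure D2:**
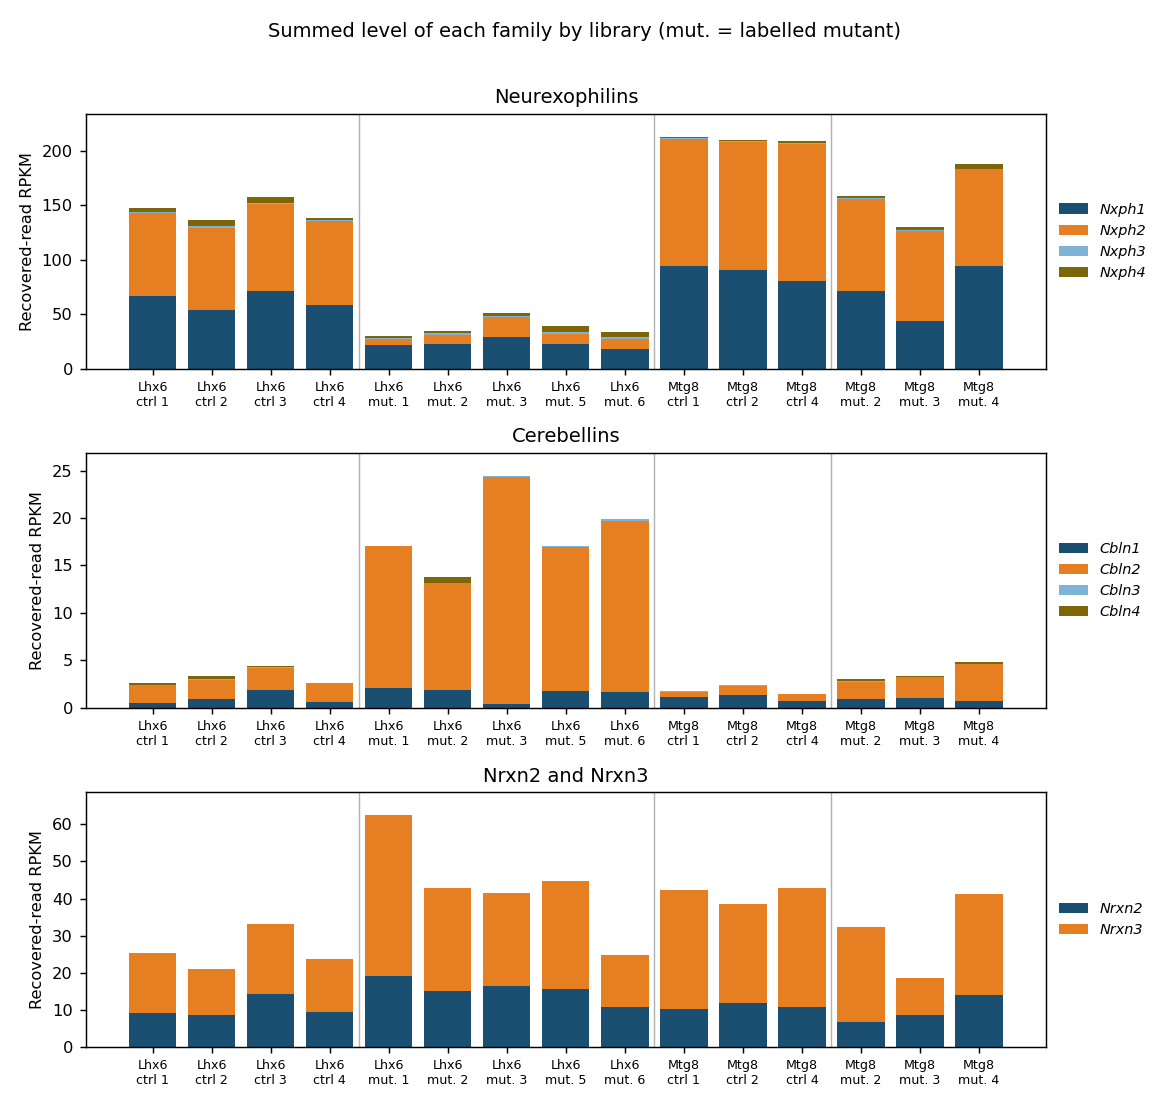
Summed level of the neurexophilins, of the cerebellins and of *Nrxn2* with *Nrxn3* (y axis, RPKM from recovered reads) in each of the 15 libraries, with the stacked colours giving each gene's part; *Cbln3* is included as a relative. The neurexophilin bars of the 5 *Lhx6* mutants reach 30.1 to 51.3 RPKM against 136.0 to 157.7 in the 4 controls, and their cerebellin bars, mostly *Cbln2*, reach 13.8 to 24.4 against 2.58 to 4.35.

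The bases before the start of *Nxph2* are shown because it had the largest drop among the members. Windows of 4 of the 9 genes were taken from the RefSeq promoter table (GRCm38.p6), and the other members were not searched. Their absence here does not show that the table lacked them. The 250 bases before each start were searched, on both strands, for TAATTA and the shorter TAAT it contains (letters of homeodomain sites). They were also searched for TGACAG (letters of TALE homeodomain sites) and for CG. Capitals mark each CG in the *Nxph2* window, chr2:23320996-23321245 of the plus strand. The marking of CG was chosen after the other searches had found no match there.
Nxph2: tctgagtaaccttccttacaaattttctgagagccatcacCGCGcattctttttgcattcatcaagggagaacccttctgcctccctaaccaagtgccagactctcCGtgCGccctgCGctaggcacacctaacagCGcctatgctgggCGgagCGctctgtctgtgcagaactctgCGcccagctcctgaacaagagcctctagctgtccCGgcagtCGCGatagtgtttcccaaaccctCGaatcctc
The window held CG 13 times, against a median of 6 over the 32851 promoter windows searched, of which 92.1% held at least 1. It held 0 matches to TAATTA, which 4.84% of all windows held, 0 to TAAT, held by 54.9%, and 0 to TGACAG, held by 15.9%. The window of *Nxph1*, before the start RefSeq gives, held 0 of these 3 and 20 CG, and it lies inside the gene as the deposited table annotates it, overlapping an exon. That of *Cbln4* held 0 of these 3 and 11 CG. The windows of the 3 *Nrxn3* starts held TAAT 2, 1 and 0 times and CG 2, 5 and 12 times, with 0 matches to TAATTA and to TGACAG. A match is a description of letters, and its absence says only that these letters are not in this window.

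*Cbln2* was the member with the largest rise. It encodes a secreted cerebellin that bridges neurexins and GluD receptors and lies on chromosome 18 (86711110 to 86718283 of GRCm38, plus strand). Controls 1, 2, 3 and 4 were at 80.8, 83.3, 103 and 88.9 normalised reads, and *Lhx6* mutants 1, 2, 3, 5 and 6 at 714, 504, 1125, 684 and 787. Every mutant was far above every control, and mutant 3 was the highest. The means were 89.0 ± 10.02 and 763 ± 228, an 8.57-fold difference (log2 fold change 3.04, SE 0.22, limma adjusted p = 8.20e-06).

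The other cerebellins stayed low. *Cbln1*, the cerebellar synapse organiser, was at 24.03, 42.5, 85.7 and 29.1 in controls and at 104, 87.9, 20.5, 85.3 and 76.8 in mutants 1, 2, 3, 5 and 6. Mutant 3 was below every control and the other mutants were within or just above the control range (log2 fold change 0.71, SE 0.50, limma adjusted p = 0.579). The log2 fold change of *Cbln1* was 1.12 without mutant 3, 1.07 without control 3 and 0.47 without control 1. *Cbln4* was read 7, 15, 5 and 0 times in the controls and 32 times in mutant 2, with 0 reads in mutants 1, 3, 5 and 6, and 0 reads allows up to 3. *Cbln2* thus made 64.9% ± 10.2 of the summed cerebellin RPKM in controls and 89.4% ± 5.90 in mutants.

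*Nrxn2* and *Nrxn3*, the receptors among the members, were higher on average in *Lhx6* mutants, and the groups overlapped. *Nrxn3* (chr12:88722876-90334935, plus strand) was at 3073, 2310.5, 3618 and 2859.8 in controls and at 9053, 5457, 5129 and 5777 in mutants 1, 2, 3 and 5. Mutant 6 was at 2668, within the control range, while the other mutants were above all controls. Per length, *Nrxn3* was at 27.8 ± 10.5 RPKM in *Lhx6* mutants and 15.4 ± 2.79 in *Lhx6* controls. It was at 30.3 ± 3.10 in the *Mtg8* controls, so the control groups of the comparisons differed as widely. The log2 fold change over all mutants was 0.84 (SE 0.27, limma adjusted p = 0.188). Without mutant 6 it was 1.08 with an adjusted p of 0.0121, and DESeq2 on the recovered reads gave 0.92 with an adjusted p of 0.030, beside 3.02% of genes called higher and 1.51% called lower by that test.

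*Nrxn2* (chr19:6418731-6544169, plus strand) was at 1921, 1793, 2984 and 1977 in controls and at 4342, 3201, 3709.7 and 3343 in mutants 1, 2, 3 and 5, with mutant 6 at 2258. Mutant 6 alone lay below the highest control, control 3. The log2 fold change was 0.63 (SE 0.20, limma adjusted p = 0.167), and without mutant 6 it was 0.77 with an adjusted p of 0.0371. Exons of *Nrxn2* overlap *Gm14964* and *Slc22a12* on the other strand, and those of *Nrxn3* overlap *Gm37980*. Whether counting used the strand is not given in the sources used here.

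Mutant 6 was also the only *Lhx6* mutant whose library name, like those of all 4 controls, carries no date. Against those controls it differed by 3.14 for *Cbln2*, -2.96 for *Nxph2* and -1.82 for *Nxph1* on the log2 scale, and by -0.13 for *Nrxn3* and 0.09 for *Nrxn2*. The 3 members called by limma were thus as far from the controls in the undated mutant as over all mutants, and the 2 neurexins were level with the controls there. The name of mutant 6 also begins with the same code as those of controls 1 and 2, and its difference from these was 3.25 for *Cbln2*, -2.93 for *Nxph2*, -1.75 for *Nxph1*, 0.0019 for *Nrxn3* and 0.28 for *Nrxn2*, a comparison chosen after seeing the data. Mutant 6 further had the highest summed radial glia markers of the *Lhx6* comparison (14030 against at most 9958 in the other libraries) and its MGE markers without *Lhx6* (28830) were the lowest of the mutants and within the control range. The part of these cells in its neurexin values was not tested. Among the other mutants, mutants 2 and 5 have names that begin with the same date and code. No control has a dated name in this comparison, so for the other 4 mutants the name style and the genotype cannot be told apart.

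Per length, the order of the members in *Lhx6* mutants was *Nrxn3* (27.8 ± 10.5 RPKM, n = 5), *Nxph1* (22.5 ± 3.94), *Cbln2* (16.7 ± 4.70), *Nrxn2* (15.4 ± 3.002) and *Nxph2* (10.6 ± 5.06), and every neighbouring pair overlapped. *Nxph2* thus went from the first of the members to the fifth, and *Cbln2* from the sixth to the third.

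**Figure D3:**
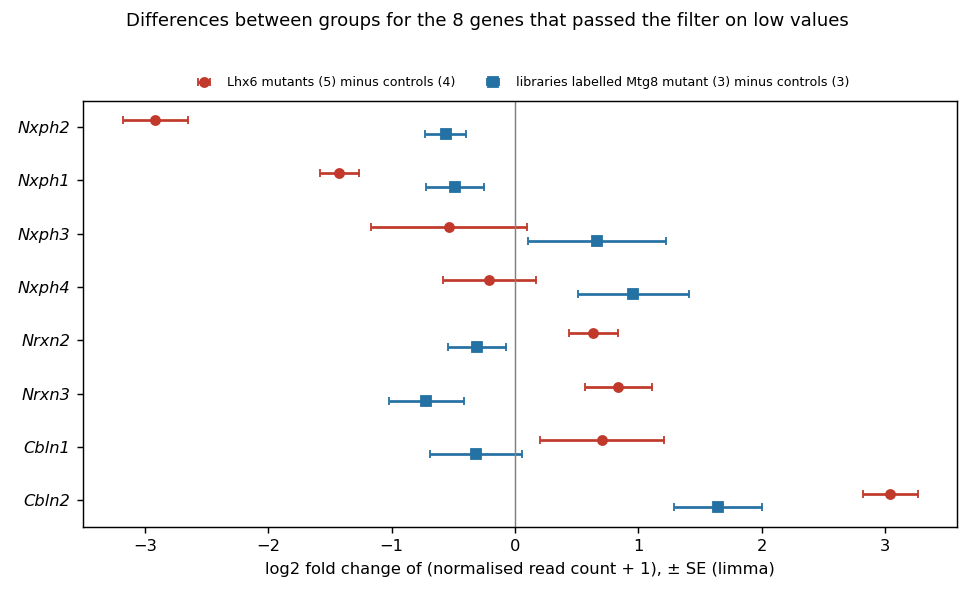
Log2 fold change of the normalised read count + 1 (x axis) with its standard error from limma for the 8 genes that passed the filter, with circles for *Lhx6* mutants (5 against 4 libraries) and squares for libraries carrying the *Mtg8* mutant label (3 against 3). *Nxph1*, *Nxph2* and *Cbln2* have the same sign in both comparisons, and *Nrxn2*, *Nrxn3*, *Cbln1*, *Nxph3* and *Nxph4* have opposite signs.

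In the libraries labelled *Mtg8* mutant, *Cbln2* was higher and *Nxph2* and *Nrxn3* were lower than in every control, and none of the members passed limma's threshold. limma called 0% of the 16132 genes tested lower and 0% higher in this comparison, where the smallest adjusted p was 0.0673, 886 genes had an unadjusted p under 0.05, edgeR called 1 gene and DESeq2 called 31. The groups did not overlap for 5.52% of all genes with labelled mutants lower, beside which stand *Nxph2* and *Nrxn3*, and for 4.68% with labelled mutants higher, beside which stands *Cbln2*. With 3 libraries against 3, such shares are common across the table, and nothing is read from them.

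*Cbln2* was at 31.3, 53.3 and 39.1 normalised reads in controls 1, 2 and 4 and at 96.3, 115 and 190.3 in labelled mutants 2, 3 and 4. The labelled mutants were all higher, on average 3.25-fold (134 ± 49.8 against 41.3 ± 11.2; log2 fold change 1.65, SE 0.36, limma adjusted p = 0.636). DESeq2 on the recovered reads gave an adjusted p of 0.0218 for a log2 fold change of 1.70, beside 0.129% of genes called higher and 0.0616% called lower by that test. Its level in the labelled mutants was 2.64 ± 1.12 RPKM (n = 3), against 0.762 ± 0.198 in *Mtg8* controls and 16.7 ± 4.70 in *Lhx6* mutants. *Lhx6* controls were at 2.03 ± 0.226 RPKM. Their range of 1.85 to 2.36 overlapped that of the labelled mutants, 1.80 to 3.90. The labelled mutants were thus apart from their own controls and not from those of the other comparison. The difference between the control groups was not tested.

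*Nxph2* was at 5424, 5673 and 6273 in controls and at 4025, 3849.8 and 3873 in labelled mutants 2, 3 and 4. The labelled mutants were closely grouped and lay below all controls at 67.6% of the control mean (log2 fold change -0.56, SE 0.16, limma adjusted p = 0.859). *Nxph1* was at 8093, 8068 and 7346 in controls and at 6261, 3706 and 7529 in labelled mutants, where mutant 4 lay within the control range and mutant 3 was the lowest (log2 fold change -0.49, SE 0.24, adjusted p = 0.859). Its log2 fold change was -0.19 without labelled mutant 3. *Nxph2* made 54.9% ± 8.27 of the neurexophilin sum in labelled mutants and 57.1% ± 3.02 in controls, and the ranges overlapped.

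*Nrxn3* was at 7315, 6347 and 7845 in controls and at 5998, 2329 and 5839 in labelled mutants 2, 3 and 4. Labelled mutant 3 was far below the other libraries, and the other labelled mutants were just under the lowest control (log2 fold change -0.72, SE 0.30, limma adjusted p = 0.859). Without labelled mutant 3 its log2 fold change was -0.27. *Nrxn2* overlapped, at 2549.6 to 3044 in controls and 1692 to 3256 in labelled mutants (log2 fold change -0.31, SE 0.23), and its log2 fold change was -0.099 without labelled mutant 2 and -0.57 without labelled mutant 4. Labelled mutant 3 also had the lowest summed MGE marker level, 37520, and the highest radial glia level, 11240. The part of these cells in its values was not tested. Within the libraries with dated names (controls 1 and 2, labelled mutant 2, whose names also share a code) and those without (control 4, labelled mutants 3 and 4), the log2 difference was 1.22 and 1.89 for *Cbln2*, -0.46 and -0.70 for *Nxph2*, -0.37 and -0.48 for *Nxph1* and -0.18 and -1.09 for *Nrxn3*, so each kept its sign in both.

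The remaining members were low in these libraries. *Cbln1* was at 41.1 to 76.8 in controls and 33.6 to 53.3 in labelled mutants (log2 fold change -0.32, SE 0.37), *Nxph3* at 8.80 to 32.0 and 16.1 to 47.6 (0.67, SE 0.56) and *Nxph4* at 26.8 to 57.7 and 40.8 to 122 (0.96, SE 0.45). All of these overlapped, and single libraries moved each of them. *Cbln1* was at -0.11 without control 2, -0.10 without labelled mutant 4 and -0.55 without control 4. *Nxph3* was at 0.20 without control 4, 0.31 without labelled mutant 2, 1.08 without control 2 and 1.07 without labelled mutant 4, and *Nxph4* was at 0.63 without labelled mutant 4. *Cbln4* was read 0, 0 and 1 times in controls and 9, 3 and 13 times in labelled mutants 2, 3 and 4, so the groups did not overlap at a depth of a few reads, and no fold is given. In *Lhx6* mutants the same gene was at 0 reads in 4 of 5 libraries.

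Set side by side, the difference for *Cbln2* on the log2 scale was 3.04 in *Lhx6* mutants and 1.65 in the *Mtg8* comparison. For *Nxph2* it was -2.92 and -0.56, for *Nxph1* -1.43 and -0.49, and for *Nrxn3* 0.84 and -0.72. Whether the effects of the mutations differ was not tested, since the tables were normalised separately and share no library.

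The known partners of these proteins were read from 5 lists with 43 genes reported here in all. Of the 32 tested by limma in the *Lhx6* comparison, 1 was called lower and 2 higher, beside 0.682% of all genes called lower and 1.03% called higher. These 3 were from the Cntnap family of neurexin-like proteins, and edgeR called the same 3. The median log2 fold change of the lists was 0.25 against -0.04 over all genes. DESeq2 on the recovered reads, which called 1.51% of all genes lower and 3.02% higher, called 2 of 33 lower and 5 higher. Beside those 3 genes it called *Dag1* (log2 fold change 0.66, adjusted p = 0.0229), *Apba1* (0.80, adjusted p = 0.0151) and *Cntnap5a* (1.69, adjusted p = 0.0474) higher and *Lrrtm4* (-0.60, adjusted p = 0.0416) lower. Of the 31 tested in the *Mtg8* comparison, 0 were called by limma, edgeR or DESeq2 in either direction (median -0.21 against -0.01 over all genes). The lists were 7 partners and relatives of cerebellins, 19 extracellular ligands of neurexins, 7 cytoplasmic partners, 7 Cntnap genes and 3 splicing regulators, and in the *Lhx6* comparison limma called 0 of the 2, 16, 5 and 3 tested of the lists other than Cntnap.

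*Cntnap3* fell in *Lhx6* mutants. It was at 563, 632, 440.3 and 806 in controls and at 39.6, 46.3, 91.3, 18.4 and 167 in mutants 1, 2, 3, 5 and 6. Every mutant was far below every control, at 11.9% of the control mean (log2 fold change -3.40, SE 0.50, limma adjusted p = 0.0026). *Cntnap2*, which encodes the Caspr2 protein that gathers potassium channels along axons, was at 986 to 1172 in controls and 2039 to 2626 in mutants, 2.19-fold higher (log2 fold change 1.13, SE 0.13, adjusted p = 3.88e-04). *Cntnap4*, known from the synapses of cortical interneurons, was at 277 to 463 in controls and 713 to 1804 in mutants (log2 fold change 1.48, SE 0.25, adjusted p = 0.00741). With the replicate numbers as a block in limma, *Cntnap2* (1.16, adjusted p = 0.0809) and *Cntnap4* (1.66, adjusted p = 0.0691) missed the threshold. *Cntnap3* stayed under it (-3.27, adjusted p = 0.0133). With name style as a covariate, all 3 kept their direction and missed the threshold. The log2 fold change was then -1.83 for *Cntnap3* (adjusted p = 0.58), 1.02 for *Cntnap2* (adjusted p = 0.0975) and 1.28 for *Cntnap4* (adjusted p = 0.519), so that only that of *Cntnap3* moved by over 1.5 times.

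In the libraries labelled *Mtg8* mutant, *Cntnap3* was at 739.7, 657 and 855 against 861, 1174 and 1772 in controls (log2 fold change -0.70, SE 0.26, limma adjusted p = 0.859). The groups came close and did not overlap, and the log2 fold change was -0.43 without control 4. *Cntnap2* (-0.27, SE 0.19) and *Cntnap4* (-0.54, SE 0.27) overlapped between the groups, and that of *Cntnap4* was -0.21 without labelled mutant 3.

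*Grid1*, which encodes the postsynaptic cerebellin receptor GluD1, overlapped between the groups in both comparisons. It was at 83.6 to 130 normalised reads in *Lhx6* controls and 75.9 to 178 in mutants (log2 fold change 0.22, SE 0.29, limma adjusted p = 0.761), with log2 fold changes of 0.12 without control 1, 0.084 without mutant 1, 0.087 without mutant 3 and 0.39 without mutant 2. In the *Mtg8* comparison it was at 85.1 to 244 in controls and 59.6 to 96.3 in labelled mutants (log2 fold change -0.91, SE 0.38, adjusted p = 0.859), and its log2 fold change was -0.56 without control 2.

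Among neurexin ligands, *Nlgn1*, the neuroligin of excitatory synapses, had a log2 fold change of 0.41 (SE 0.20, limma adjusted p = 0.432) in *Lhx6* mutants. *Nlgn2*, the neuroligin of inhibitory synapses, had 0.59 (SE 0.28, adjusted p = 0.400) and 0.39 without mutant 1, with a change of sign to -0.098 under the name style covariate, and *Dag1*, which encodes dystroglycan, had 0.66 (SE 0.19, adjusted p = 0.118). Without mutant 6, *Dag1* was at 0.76 with an adjusted p of 0.048, and with all libraries it passed the threshold in DESeq2. With name style as a covariate it was at 0.28 with an adjusted p of 1.0. All 3 overlapped between the groups. In the *Mtg8* comparison they were -0.14 for *Nlgn1* (SE 0.35), -0.53 for *Nlgn2* (SE 0.21, with labelled mutants at 554 to 815 and controls at 980.3 to 1061, and -0.35 without labelled mutant 3) and 0.22 for *Dag1* (SE 0.26). There *Nlgn1* was at 0.20 without labelled mutant 3 and *Dag1* at -0.075 without labelled mutant 4, each with a change of sign. The widest differences among the ligands in *Lhx6* mutants, singled out after their values were seen, were those of *Car10*, a carbonic anhydrase-related ligand (-2.96, SE 1.02, adjusted p = 0.223), and *Tafa1* (2.01, SE 1.12, adjusted p = 0.481), and neither passed the test.

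**Figure D4:**
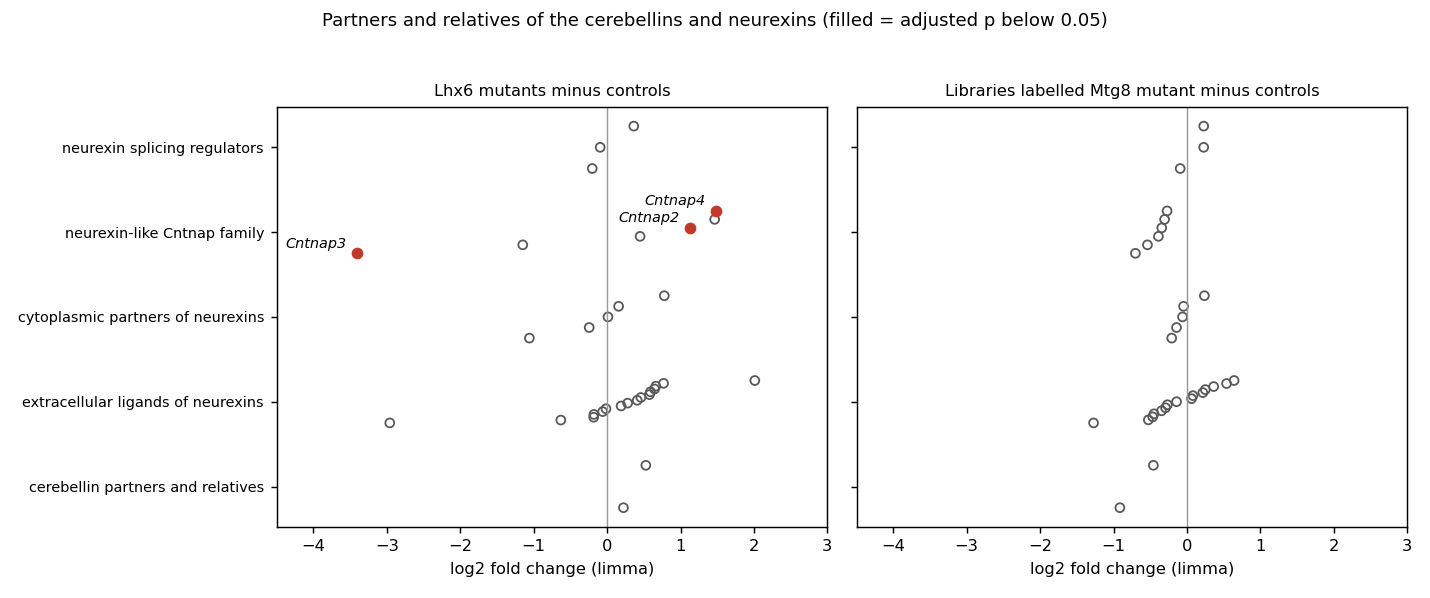
Log2 fold change (x axis, limma) of every tested gene of the 5 partner lists (rows) with *Lhx6* mutants on the left and libraries carrying the *Mtg8* mutant label on the right, with filled points for an adjusted p under 0.05. The filled points are *Cntnap3* at -3.40, *Cntnap2* at 1.13 and *Cntnap4* at 1.48, all in *Lhx6* mutants.

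For the members with a log2 fold change of at least 1 in either direction in *Lhx6* mutants, the genes with the most similar values were sought among the 15629 genes tested in both comparisons. Likeness was measured over the 15 libraries as the root mean square difference of log2 values, each gene centred on its control mean. Nearest to *Nxph2* were *Syndig1*, a regulator of AMPA receptors (0.304), *Gm13429*, a long noncoding RNA gene (0.424), and *Sst*, which encodes somatostatin (0.460). Their log2 fold changes in *Lhx6* mutants were -3.08, -2.54 and -3.06, and in the *Mtg8* comparison -0.36, -0.33 and -1.34. Nearest to *Nxph1* were *Hivep3* (0.226), *Ripor2* (0.232) and *Gria1*, an AMPA receptor subunit (0.256), with log2 fold changes of -1.29, -1.64 and -1.44 in *Lhx6* mutants and -0.41, -0.47 and -0.77 in the *Mtg8* comparison.

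The values nearest to *Cbln2* lay farther from it, those of *Brinp1* (0.707), *Fign*, which encodes the microtubule-severing protein fidgetin (0.737), and *Ccdc85a* (0.777). These genes were 2.49, 3.51 and 1.93 higher on the log2 scale in *Lhx6* mutants, and 0.45, 0.46 and 0.82 higher in the libraries labelled *Mtg8* mutant, where *Cbln2* was 1.65 higher.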

How the data were processed

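YFP-positive cells sorted from single embryos were profiled by low-input RNA-seq (75-base single reads). Per the submitters' processing notes, the authors used fastp 0.20.1, STAR 2.7b, featureCounts 1.6.4 and DESeq2, on GRCm38, and filtered out sex-linked genes; 0 genes of chromosome X or Y are in the tables. As signal, the authors deposited each gene's count divided by its library's size factor, in a separate table per comparison. All values (100%) were whole multiples of 1 read within 0.01, which gave back the counts. The deposited tables also hold the authors' own mean, log2 fold change, standard error, Wald statistic and p-values, which were not used.

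Each table was fitted alone with limma 3.58.1 (R 4.3.3; trend) on log2(normalised count + 1) where a gene's mean was 10 or more, two-sided, with Benjamini-Hochberg adjustment over all genes tested at 0.05. The added 1 shrinks the fold change of low genes. A mean of logs can also widen it where a library is near 0, as for *Nxph3* in *Lhx6* mutants (-0.53, against -0.21 with DESeq2). The script was tested on simulated data. RPKM used the recovered reads, their total and the gene length in the table. As alternatives, the pseudocount was 0.5 or 10, the filter was dropped or raised to 50, and the others were TMM factors, equal totals, DESeq2 1.42.0, edgeR 4.0.16, a replicate block, the name style and each library left out. Named genes were the members, the targeted genes, partner genes called by limma, *Grid1*, *Nlgn1*, *Nlgn2* and *Dag1*, and the 3 genes most like each member that changed by at least 1 on the log2 scale. *Npy*, *Car10*, *Tafa1*, *Apba1*, *Lrrtm4*, *Cntnap5a* and the called CGE and MGE markers other than *Lhx6* fall outside this rule and were named after their values were seen. Some relatives and partners are not reported here. Members and lists were chosen with earlier results of these data known. Read floors cover counting error only (no molecular identifiers), and the number of embryos limits the precision.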

Additional observations from a re-analysis of the deposited data

Results flagged for a closer look

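In a group of 4 to 10 libraries, a library was singled out where its gap to the nearest other library was a large part of the group's range, both on the log2(normalised count + 1) scale (Dixon's test at 95%). Of 18 groups of values tested for the members, 4 were, and chance singles out about 1 in 20. On the normalised counts themselves, a scale tried after seeing the data, 5 were, 3 of them the same. Those added were *Nrxn2* in *Lhx6* control 3 (2984) and *Nxph2* in *Lhx6* mutant 3 (802). *Cbln1* in *Lhx6* mutant 3 was no longer among them. *Lhx6* control 3 also had the highest summed erythroid markers of its comparison, 28680 against at most 10010 in the other libraries. Its mural cell markers were also the highest there (383.2). The part of such cells in its *Nrxn2* value was not tested. *Cbln1* in *Lhx6* mutant 3 was at 20.5 normalised reads, below the other mutants. *Nxph3* in the same library was at 3.73, likewise far below the other mutants. That library also had the highest summed microglia (376.3), oligodendrocyte precursor (325.1) and MGE (49980) markers of its comparison. Its summed radial glia (6642) and pyramidal neuron (10500) markers were the lowest there. The part of such cells in its values was not tested. *Nxph3* in *Lhx6* control 2 was at 54.1, above the other controls. *Cbln4* in *Lhx6* mutant 2 was at 29.6, the only mutant with any read of the gene. *Lhx6* mutant 2 also had the highest summed level of the subpallial projection and cholinergic neuron markers, 1410 normalised reads against at most 566 in the other libraries of that comparison, and the part of such cells in its *Cbln4* reads was not tested.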

How the results depend on the processing

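*Nxph1*, *Nxph2* and *Cbln2* kept their direction and their call in *Lhx6* mutants under every alternative run. Over all member fold changes and alternatives, 269 values kept their direction and side of the threshold, 5 passed the threshold only under the alternative and 4 changed sign. With name style as a covariate, where the effect is that of *Lhx6* mutant 6 against the controls, the log2 fold change was -0.13 for *Nrxn3*, 0.20 for *Nxph3*, 0.11 for *Nxph4* and -0.098 for *Nlgn2*, with 42 genes called lower and 15 higher. *Nrxn2* was then at 0.089 and *Grid1* at 0.036. In the *Mtg8* comparison that covariate put *Nxph3* at 1.08, *Nxph4* at 0.60, *Cbln1* at -0.15 and *Dag1* at 0.11. *Nxph3* ranged from -0.74 to 0.10 with 1 library left out, and was at 0.10 without *Lhx6* mutant 3, and it was at -0.30 with a pseudocount of 10. DESeq2 called 271 genes lower and 540 higher in *Lhx6* mutants, with 2 members higher, and in the *Mtg8* comparison 10 lower and 21 higher, with 1 member higher. In the *Mtg8* comparison a minimum mean of 50 gave 1 gene lower and 1 higher, and edgeR and no filter each gave 1 higher. *Nlgn1* was at -0.020 there with DESeq2, -0.0057 with edgeR, -0.070 with equal totals, 0.14 with name style as a covariate, 0.043 without control 2 and 0.20 without labelled mutant 3 (range -0.57 to 0.20 over the libraries left out), and *Dag1* at -0.075 without labelled mutant 4 (range -0.075 to 0.39). With 1 library left out at a time, there were 55 to 148 genes lower and 104 to 344 higher in *Lhx6* mutants, with 2 to 2 members lower and 1 to 3 higher, and 0 to 4 lower and 0 to 83 higher in the *Mtg8* comparison. The cause of these shifts was not tested.

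The replicate numbers of the labels were used as a replicate block. Deviations of same-numbered libraries correlated at -0.15, 0.0018 and 0.072 in the *Lhx6* comparison and at 0.14 and 0.16 in the *Mtg8* comparison, and the labels do not say that a number marks a litter. Of the same-numbered pairs, only control 2 and labelled mutant 2 of the *Mtg8* comparison have names that begin with the same date and code, which control 1 shares, so the numbers were not taken to pair the libraries. With the block, which left 2 and 1 residual degrees of freedom, 37 genes were called lower and 49 higher in *Lhx6* mutants, and 12 lower and 88 higher in the *Mtg8* comparison. *Cbln2* was then the 1 member called higher in the latter, *Nlgn1* was at 0.15, and *Cntnap2* (log2 fold change 1.16) and *Cntnap4* (1.66) missed the threshold in *Lhx6* mutants with changes no smaller than without the block. The block also put *Nxph3* at -1.01, *Nxph4* at -0.84 and *Cbln1* at 0.36 in *Lhx6* mutants, and *Nxph1* at -0.17, *Nrxn3* at -0.25, *Nxph4* at 0.58 and *Cntnap4* at -0.23 in the *Mtg8* comparison. RPKM was also computed with the deposited size factors in place of totals, and no mean control level moved by more than its SD.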
